A study of Mus musculus with 8 samples.

Results

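The 9 genes described here are Cd200, Mme, Diaph2, Ccdc85a, Coch, Runx1t1, Slc40a1, Nlrp4f and Stk26, out of 18194 genes with a symbol of their own on the array. They were selected on their measured level in mouse embryonic stem cells that lack the histone demethylase Jmjd1a, where they lay above wild type. In the ranking of Jmjd1a-KO against WT, of the 12 largest rises that passed an adjusted p of 0.05 in a fit of the whole table without overlap between the arrays, 9 are these genes, and Tfap2c, Impact and Peg3 are the other 3. Runx1t1 was the last inside this limit with a log2 difference of 1.239, and Gnai1 the first outside it with 1.235. The values of Jmjd1a-KO against WT below are therefore a description of the choice, and the questions asked of the data are whether the genes went further in cells that also lack Jmjd1b, and how near WT they stayed in cells lacking only Jmjd1b.

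RNA was measured on 8 Affymetrix arrays, 2 biological replicates in each of 4 groups: double-KO (Jmjd1a and Jmjd1b both delta/delta), Jmjd1a-KO (Jmjd1a delta/delta, Jmjd1b +/+), Jmjd1b-KO (Jmjd1a +/+, Jmjd1b delta/delta) and WT (+/+ at both genes). All cells were kept in medium with leukemia-inhibiting factor, and the treatment protocol given for all 8 samples names OHT at 800 nM, which switches on the inducible Cre that deletes the conditional Jmjd1b allele. Double-KO cells were made from a Jmjd1a-deficient line carrying conditional Jmjd1b alleles and an OHT-inducible Cre, and whether the Jmjd1a-KO samples are that same line is not said. The labels give mice as the source of the WT cells and of the Jmjd1b-KO cells, while the design text describes Jmjd1b-deficient lines made in culture with a Cre adenovirus. Genotype and cell line of origin cannot be told apart in the comparisons below, and the sources used here do not say which line each replicate came from.

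Jmjd1a and Jmjd1b, now named Kdm3a and Kdm3b, are related enzymes that take methyl groups off lysine 9 of histone H3, a mark of silenced chromatin. Loss of such an enzyme can leave genes more heavily marked, and genes that rise in its absence need not be its direct targets. The 9 genes are no single pathway. Cd200 encodes a surface glycoprotein that restrains myeloid cells through its receptor, and Mme encodes neprilysin, a membrane peptidase that cuts short peptides. Slc40a1 encodes ferroportin, which exports iron. Diaph2 encodes a formin that builds actin filaments, and Stk26 a kinase of the Ste20 family that works with the adaptor Pdcd10. Runx1t1 encodes a corepressor of transcription of the ETO family, Coch encodes cochlin, a secreted matrix protein known from the inner ear, and Nlrp4f belongs to a family of NLR genes active in mouse oocytes. Ccdc85a encodes a coiled-coil protein.

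Promoter letters were available from RefSeq for 7 of the 9 genes, and Runx1t1 and Slc40a1 had no entry. Below stand the 250 bases before the start of Diaph2 and Cd200, which were highest in double-KO, and of Stk26 and Nlrp4f, which were not, on build GRCm38.p6, written 5′ to 3′ on the strand of the gene. Capitals mark each CG dinucleotide, the site of DNA methylation.
Diaph2: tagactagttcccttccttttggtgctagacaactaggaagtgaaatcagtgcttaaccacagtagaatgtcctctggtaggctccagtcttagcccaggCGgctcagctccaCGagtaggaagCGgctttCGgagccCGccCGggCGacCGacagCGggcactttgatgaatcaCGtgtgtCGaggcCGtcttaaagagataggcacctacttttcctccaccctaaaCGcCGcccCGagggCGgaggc
Cd200: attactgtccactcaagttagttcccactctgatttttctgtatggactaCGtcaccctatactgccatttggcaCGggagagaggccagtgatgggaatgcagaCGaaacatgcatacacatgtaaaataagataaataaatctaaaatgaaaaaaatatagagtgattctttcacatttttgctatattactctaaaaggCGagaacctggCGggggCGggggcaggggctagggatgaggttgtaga
Stk26: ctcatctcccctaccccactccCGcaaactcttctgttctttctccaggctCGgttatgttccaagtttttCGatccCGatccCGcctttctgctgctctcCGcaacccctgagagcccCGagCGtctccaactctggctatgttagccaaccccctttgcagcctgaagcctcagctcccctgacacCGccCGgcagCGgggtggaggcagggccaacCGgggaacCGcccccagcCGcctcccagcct
Nlrp4f: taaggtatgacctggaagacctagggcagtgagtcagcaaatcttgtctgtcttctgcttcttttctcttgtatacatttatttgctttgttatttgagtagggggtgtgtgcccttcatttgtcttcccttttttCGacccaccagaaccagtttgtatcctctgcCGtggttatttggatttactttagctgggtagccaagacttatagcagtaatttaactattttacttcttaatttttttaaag
The Diaph2 stretch lies at chrX:129749492-129749741 on the plus strand and holds 16 CG, and that of Stk26 lies at chrX:50841121-50841370 on the plus strand and holds 14. The Cd200 stretch lies at chr16:45409054-45409303 on the minus strand with 6 CG, and that of Nlrp4f at chr13:65205717-65205966 on the minus strand with 2. Across 32851 promoters of the same length the median was 6 CG, so Cd200 was at the median, Nlrp4f was below it and the X-linked pair above it. The stretch of Coch held 24 CG and that of Ccdc85a 10, and the 3 listed starts of Mme held 2, 27 and 27. No CG class was thus shared by the 9 genes. The motif GCCNNNGGC, which reads the same on both strands and is bound by Tfap2 factors, was found in 1 of the 9 member stretches, at a start of Mme, and in 13.7% of all promoters. The CG count and this motif were looked at after the values were known.

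The deleted genes followed the labels. Kdm3a had 4.60 and 4.77 in double-KO and 5.08 and 4.87 in Jmjd1a-KO, against 12.80 and 12.83 in Jmjd1b-KO and 12.83 and 12.73 in WT, all as deposited log2 levels. Kdm3b had 7.06 and 7.66 in double-KO and 7.07 and 7.10 in Jmjd1b-KO, against 9.95 and 9.81 in Jmjd1a-KO and 9.91 and 9.96 in WT. Of the 12 listed embryonic stem cell markers all 12 were measured. Pou5f1 had group means between 12.3 and 12.6. Of the 12, 4 were higher in double-KO than in Jmjd1b-KO (Zfp42 by 1.75, Nanog by 0.92, Sall4 by 0.67 and Sox2 by 0.55) and 0 lower. Of all genes tested 29.6% were called higher there and 24.2% lower, and the median of the 12 markers was -0.11. Sall4 was also lower in Jmjd1b-KO than in WT, by -0.44 (adjusted p = 0.045). Its double-KO level did not pass against WT (0.22, adjusted p = 0.17). Esrrb had means of 8.63 in double-KO and 11.16 in Jmjd1a-KO, a difference of -2.52 (adjusted p = 0.021), so the level of several markers differed between the groups compared below, and their part in the results was not tested. A span under 0.01 over the 8 arrays was found for 74.5% of the 45101 probe sets. Such flat probe sets hold no measured difference, and the tests below use the 7181 genes with a probe set above that span. The SD of the difference between replicates over these genes was 0.29 in double-KO and 0.34 in Jmjd1a-KO, larger than the 0.12 of Jmjd1b-KO and the 0.15 of WT. Whether the replicates came from separate cultures is not stated beyond their name, and p-values measure the spread between these arrays. The lower quartile of an array lay between 6.341 and 6.346, and signal over background was not examined, so levels near or below it make the size of a difference uncertain.

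Platform symbols gave the 9 genes 19 probe sets, of which 15 were measured and 4 were flat, 2 of Runx1t1 and 1 each of Ccdc85a and Mme. Each gene is first given by its brightest measured probe set. In short, Cd200, Slc40a1, Diaph2, Ccdc85a and Runx1t1 were highest in double-KO with Jmjd1a-KO between it and the other groups, Coch and Mme were nearly as high in Jmjd1a-KO as in double-KO, and Stk26 and Nlrp4f were highest in Jmjd1a-KO.

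Cd200 had log2 levels of 8.73 and 8.92 in double-KO, 7.33 and 7.18 in Jmjd1a-KO, 6.77 and 6.72 in Jmjd1b-KO and 5.43 and 5.43 in WT. The 4 groups did not overlap, and each loss alone stood above WT. Its double-KO mean was 10.5-fold the WT mean, the largest such ratio of the 9, though the WT level lies below the lower quartile of the array. Slc40a1 had 9.59 and 9.30 in double-KO, 8.003 and 7.73 in Jmjd1a-KO, 7.25 and 7.13 in Jmjd1b-KO and 6.52 and 6.59 in WT. The iron exporter thus took the same order of groups as Cd200, again without overlap. A second Slc40a1 probe set had 8.05 and 7.93 in double-KO, 7.24 and 7.03 in Jmjd1a-KO, 7.05 and 7.03 in Jmjd1b-KO and 6.55 and 6.58 in WT. On it the lower Jmjd1a-KO array reached the Jmjd1b-KO arrays, and double-KO stayed apart from all others.

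Diaph2 had 10.18 and 10.09 in double-KO, 9.01 and 8.99 in Jmjd1a-KO, 7.52 and 7.20 in Jmjd1b-KO and 7.54 and 7.28 in WT. Double-KO and Jmjd1a-KO each stood apart, while the Jmjd1b-KO and WT arrays overlapped. Its second probe set had 9.03 and 9.20 in double-KO, 7.97 and 7.85 in Jmjd1a-KO, 6.84 and 6.75 in Jmjd1b-KO and 7.18 and 6.77 in WT, the same order with the same overlap. Ccdc85a had 8.04 and 7.97 in double-KO, 7.05 and 7.35 in Jmjd1a-KO, 5.92 and 5.84 in Jmjd1b-KO and 5.67 and 5.66 in WT. Its groups did not overlap, and the Jmjd1b-KO and WT levels lie below the lower quartile.

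Runx1t1 was read by 4 measured probe sets. The brightest, of the type x_at, whose probes can bind other transcripts, had 8.21 and 7.94 in double-KO, 7.39 and 7.38 in Jmjd1a-KO, 6.11 and 5.83 in Jmjd1b-KO and 6.12 and 6.18 in WT. On this probe set the Jmjd1b-KO and WT levels lie below the lower quartile. The 3 others were higher in both double-KO arrays than in all 6 other arrays. In Jmjd1a-KO they were closer to WT: one had 7.11 and 7.30 in double-KO, 6.24 and 6.80 in Jmjd1a-KO, 6.399 and 6.16 in Jmjd1b-KO and 6.12 and 6.20 in WT, so that Jmjd1a-KO and Jmjd1b-KO overlapped. Across the 4 probe sets the difference of Jmjd1a-KO and WT means lay between 0.36 and 1.24, and that of double-KO and Jmjd1a-KO means between 0.53 and 0.72.

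Coch had 8.44 and 8.63 in double-KO, 8.22 and 8.07 in Jmjd1a-KO, 6.90 and 6.73 in Jmjd1b-KO and 6.71 and 6.66 in WT. Most of its span lay between the Jmjd1a-deficient groups and the other pair of groups. Mme had 8.97 and 8.86 in double-KO, 8.66 and 8.69 in Jmjd1a-KO, 6.44 and 6.06 in Jmjd1b-KO and 6.85 and 6.82 in WT. Neprilysin was the member with its lowest level in Jmjd1b-KO that passed the test against WT given below. Its lower Jmjd1b-KO array, at 6.06, lies below the lower quartile.

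Stk26 had 9.57 and 9.43 in double-KO, 9.98 and 9.92 in Jmjd1a-KO, 9.02 and 9.22 in Jmjd1b-KO and 8.48 and 8.62 in WT. Its second probe set had 8.08 and 7.98 in double-KO, 8.63 and 8.34 in Jmjd1a-KO, 7.83 and 7.70 in Jmjd1b-KO and 7.30 and 7.57 in WT. On both, the kinase was highest in Jmjd1a-KO, next in double-KO, then in Jmjd1b-KO and lowest in WT, without overlap. Nlrp4f had 8.56 and 8.57 in double-KO, 8.77 and 8.83 in Jmjd1a-KO, 8.42 and 8.18 in Jmjd1b-KO and 6.995 and 7.23 in WT. All 3 knockout groups were well above WT and lay close to each other. Nlrp4f has close relatives in the genome, so which copy the probes read is uncertain.

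**Figure D1:**
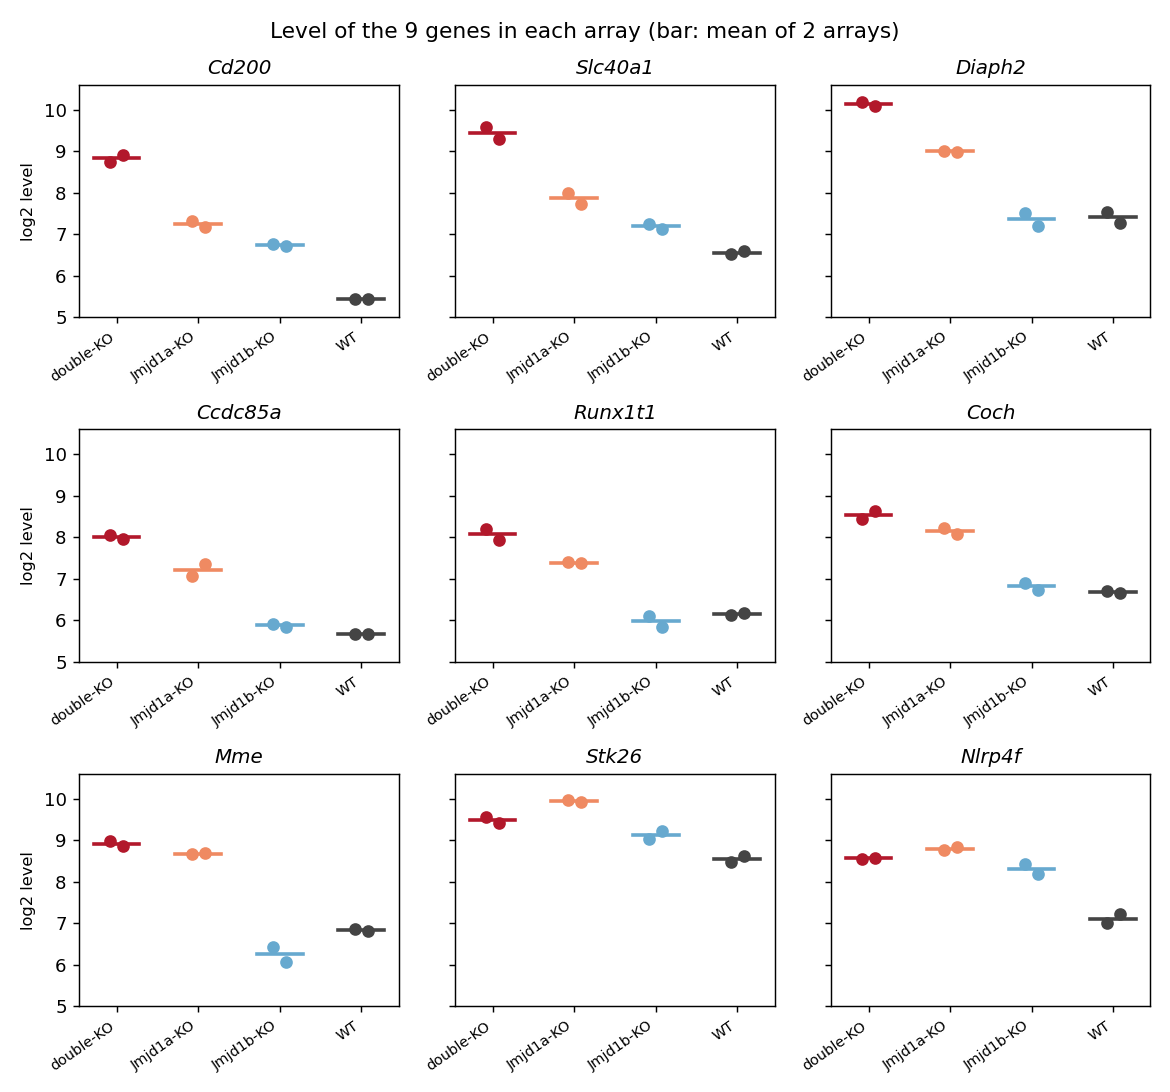
Deposited log2 level (y axis) of the brightest measured probe set of each of the 9 genes in every array, with 2 points per group and a bar at their mean, for double-KO, Jmjd1a-KO, Jmjd1b-KO and WT. Cd200 had means of 8.83 in double-KO, 7.26 in Jmjd1a-KO, 6.74 for Jmjd1b-KO and 5.43 in WT, while Stk26 and Nlrp4f peak in Jmjd1a-KO.

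Loss of Jmjd1a in cells without Jmjd1b was read from double-KO against Jmjd1b-KO, in a limma fit of those 4 arrays, whose levels do not enter the difference of Jmjd1a-KO and WT that ranked the genes. They are not fully independent of the choice, since the spread in the ranking, the span filter and the brightest probe set were taken from all 8 arrays. Of the 9 genes 8 were higher in double-KO with an adjusted p under 0.05, where 29.6% of the 7181 genes were called higher. The median difference of the 9 was 2.10 on the log2 scale, and that of all genes tested was 0.02. All 9 were higher in both double-KO arrays than in both Jmjd1b-KO arrays, as were 44.6% of all genes tested, while 38.4% were lower without overlap. The actin regulator Diaph2 differed by 2.77 ± 0.13 (SE, n = 2 each, adjusted p = 0.00204), a 6.84-fold higher mean. Mme differed by 2.67 ± 0.15 (adjusted p = 0.00222), Slc40a1 by 2.25 ± 0.12 (adjusted p = 0.00222) and Ccdc85a by 2.13 ± 0.06 (adjusted p = 0.0016). Runx1t1 (2.10 ± 0.15), Cd200 (2.08 ± 0.08) and Coch (1.72 ± 0.10) were also higher, with adjusted p-values of 0.00312, 0.0019 and 0.00245. The sizes for Slc40a1 and Runx1t1 depend on the probe set: the second of Slc40a1 gave 0.95 and the 3 others of Runx1t1 0.92 to 1.32, all called in the fit of every probe set, and the means of their probe sets gave 1.60 and 1.34.

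Stk26 was higher by 0.38 ± 0.10 (adjusted p = 0.0389), a call lost under quantile normalization (adjusted p = 0.0509), with centred arrays (0.0605), without either Jmjd1b-KO array (0.187 and 0.0956), without double-KO replicate 1 (0.0704) and with the replicate number as a block (0.0741). Nlrp4f differed by 0.27 ± 0.10, with a 95% interval from -0.02 to 0.55 (adjusted p = 0.097). On the brightest probe sets the other 7 genes thus differed by 1.72 or more, and Stk26 and Nlrp4f by less than 0.4. In a fit that also takes the flat genes, 18194 in all, 3 of the 9 were called (Cd200, Diaph2 and Ccdc85a), where 3.02% were called higher and 4.38% lower, and Slc40a1, Coch, Mme and Runx1t1 had adjusted p-values of 0.0505 to 0.0666.

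Whether loss of both enzymes went further than loss of Jmjd1a was read from double-KO against Jmjd1a-KO in a fit of all 8 arrays. The choice of the genes used the Jmjd1a-KO arrays, which pulls these differences down. Of the 9 genes 6 were higher and 1 lower in double-KO, where 18.1% of all genes tested were called higher and 11.9% lower. Without overlap of the arrays 7 were higher and 2 lower, against 35 and 28.1% of all genes tested. Slc40a1 rose by 1.58 ± 0.13 (adjusted p = 0.00131), Cd200 by 1.57 ± 0.08 (adjusted p = 0.000473), Diaph2 by 1.14 ± 0.13 (adjusted p = 0.00363) and Ccdc85a by 0.81 ± 0.10 (adjusted p = 0.00452). Double-KO means were thus 2.98-fold the Jmjd1a-KO mean for the iron exporter and 2.97-fold for Cd200, though the second Slc40a1 probe set differed by 0.85 ± 0.09 (adjusted p = 0.002). Runx1t1 rose by 0.69 ± 0.12 (adjusted p = 0.0115), and all 4 of its measured probe sets were called in a fit of every probe set, but array weights ended the call (adjusted p = 0.0732). Coch rose by 0.39 ± 0.10 (adjusted p = 0.0321), a call that was lost under quantile normalization (adjusted p = 0.0579), with centred arrays (0.0693), with array weights (0.12), with the replicate number as a block (0.0524) and when any array other than Jmjd1a-KO replicate 1 or double-KO replicate 1 was left out (0.0533 to 0.113).

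Stk26 fell by 0.45 ± 0.09 in double-KO against Jmjd1a-KO (adjusted p = 0.0188), a call lost with array weights (adjusted p = 0.112), without Jmjd1a-KO replicate 1 (0.0547) and without double-KO replicate 2 (0.0695). Its second probe set had the same difference of -0.45 and did not pass (adjusted p = 0.0512). Mme differed by 0.24, with a 95% interval from -0.06 to 0.54, and Nlrp4f by -0.23, with an interval from -0.51 to 0.04. Neither passed the test (adjusted p = 0.193 and 0.164). With only the 4 arrays compared in the fit, 3 genes were higher and 0 lower, where 275 and 126 of the 7181 genes were called, and the same differences of Ccdc85a, Runx1t1 and Coch had adjusted p-values of 0.0568, 0.061 and 0.124. In the fit with flat genes 4 were higher and 0 lower, where 2.69 and 1.79% of genes were called, and Runx1t1, Coch and Stk26 lost their calls.

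Cells without Jmjd1b but with Jmjd1a were then set against WT, also in the fit of all 8 arrays. Here the choice used the WT arrays, which pulls the differences up. Of the 9 genes 4 were higher and 1 lower in Jmjd1b-KO, where 13.6% of all genes tested were called higher and 10.2% lower. Without overlap 6 were higher and 2 lower, against 43.4 and 35% of all genes tested. Cd200 rose by 1.31 ± 0.08 (adjusted p = 0.00256) and Nlrp4f by 1.19 ± 0.11 (adjusted p = 0.00456), so that neither stayed near WT. Slc40a1 rose by 0.64 ± 0.13 (adjusted p = 0.0247) and Stk26 by 0.57 ± 0.09 (adjusted p = 0.0141), while Mme fell by 0.59 ± 0.12 (adjusted p = 0.0254). The second Stk26 probe set had 0.33 and did not pass (adjusted p = 0.12). The count of higher genes was 2, Cd200 and Nlrp4f, without WT replicate 1, WT replicate 2, Jmjd1b-KO replicate 1 or Jmjd1b-KO replicate 2, and Mme lost its call without either WT array or without Jmjd1b-KO replicate 2. Its adjusted p was then between 0.0787 and 0.127. In the fit with flat genes the counts were 2 higher and 0 lower, where 1.45 and 0.89% of genes were called.

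The other 4 genes did not pass, which does not show that they stayed at the WT level. Ccdc85a differed by 0.22 with a 95% interval from -0.03 to 0.47, Coch by 0.13 (-0.11 to 0.37), Diaph2 by -0.05 (-0.37 to 0.28) and Runx1t1 by -0.18 (-0.48 to 0.12). These intervals leave out differences of the size the same genes had between double-KO and Jmjd1b-KO, which were 1.72 to 2.77. With only the 4 arrays compared, Ccdc85a was called higher (adjusted p = 0.0263).

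**Figure D2:**
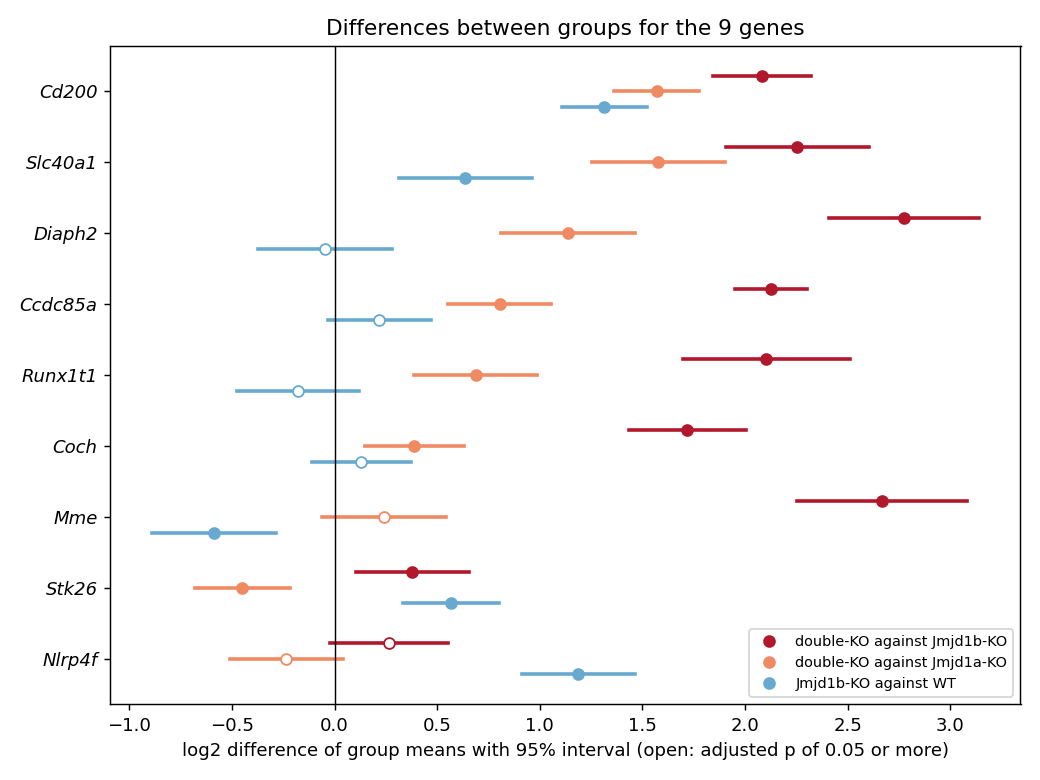
Log2 difference of group means (x axis, points) with its 95% interval (lines) for each of the 9 genes, for double-KO against Jmjd1b-KO, double-KO against Jmjd1a-KO and Jmjd1b-KO against WT. Filled points have an adjusted p under 0.05, and the double-KO against Jmjd1b-KO points of 7 genes lie at 1.72 or more while those of Stk26 and Nlrp4f lie at 0.38 and 0.27.

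The difference that went with Jmjd1b loss was then compared between cells without and with Jmjd1a, as double-KO minus Jmjd1a-KO less Jmjd1b-KO minus WT. This interaction contains the contrast that chose the genes, which pulls it down. It was positive with an adjusted p under 0.05 in 5 of the 9 genes and negative in 2, where 14.1% of all genes tested were positive and 12.2% negative. Diaph2 had 1.14 without Jmjd1a and -0.05 with it, an interaction of 1.18 ± 0.19 (adjusted p = 0.0103). For Slc40a1 the interaction was 0.94 ± 0.19, for Runx1t1 0.87 ± 0.17, for Mme 0.83 ± 0.17 and for Ccdc85a 0.59 ± 0.14 (adjusted p = 0.0184, 0.0184, 0.0216 and 0.0334). The second Slc40a1 probe set had 0.37 (adjusted p = 0.069) and 1 of the 3 other Runx1t1 probe sets 0.56 (adjusted p = 0.172), and neither passed.

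Nlrp4f had -0.23 without Jmjd1a and 1.19 with it, an interaction of -1.42 ± 0.16 (adjusted p = 0.0046). Stk26 had -0.45 and 0.57, an interaction of -1.02 ± 0.13 (adjusted p = 0.00671). For these genes the double-KO level was thus below what the sum of the separate log2 differences would give. Cd200 had 1.57 without Jmjd1a and 1.31 with it, and its interaction of 0.26 had a 95% interval from -0.04 to 0.55 (adjusted p = 0.16). Coch did not pass either, at 0.26 (-0.08 to 0.60, adjusted p = 0.213). The negative calls of Nlrp4f and Stk26 held without each array in turn, which does not remove the pull of the choice in that direction. Of the positive calls 1, that of Diaph2, was left without WT replicate 1 or without WT replicate 2, 2 were left without Jmjd1b-KO replicate 2, and 3 each without Jmjd1b-KO replicate 1 and without double-KO replicate 1. In the fit with flat genes 0 of the 9 were positive and 2 negative, where 1.89 and 1.93% of genes were called.

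**Figure D3:**
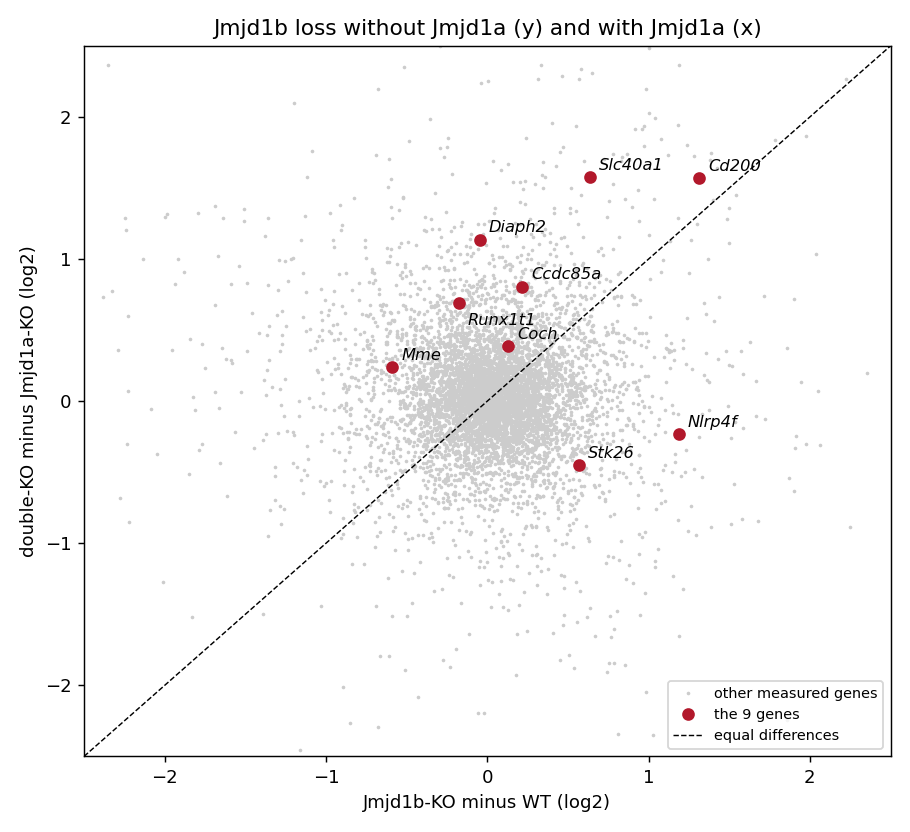
Each point is a gene, with its log2 difference between Jmjd1b-KO and WT on the x axis and between double-KO and Jmjd1a-KO on the y axis. The 9 genes are named and the 7172 other measured genes are grey, of which 53 lie outside the axes. Slc40a1, Diaph2, Ccdc85a, Runx1t1 and Mme lie above the dashed line of equal differences, Cd200 and Coch lie near it, and Stk26 and Nlrp4f lie below it.

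Against WT, all 9 genes were higher in both double-KO arrays, as were 43.4% of all genes tested, while 35.6% were lower without overlap. This comparison shares the WT arrays with the choice and is given with no test. On the brightest probe sets the ratio of means was 10.5 for Cd200, 7.42 for Slc40a1, 6.62 for Diaph2, 5.08 for Ccdc85a and 4.23 for Mme. It was 3.80 for Runx1t1, 3.60 for Coch, 2.74 for Nlrp4f and 1.93 for Stk26. Other measured probe sets gave 2.68 for Slc40a1, 4.41 for Diaph2, 1.51 for Stk26 and 1.85 to 2.36 for Runx1t1. The limit of the ranking bounds from below the ratios in Jmjd1a-KO, the contrast of the choice. On the brightest probe sets they ran there from 2.36 for Runx1t1 to 3.58 for Mme. The other measured Runx1t1 probe sets had log2 differences of 0.36 to 0.52 there, against 1.24 on the brightest. In the fit of the 7181 genes all 9 were called higher in Jmjd1a-KO against WT, beside 10.2% of all genes tested. This contrast chose the genes, and nothing is read from that count.

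The members also differed in how alike their profiles were. With each gene set to 0 at its WT mean, the members' mean profile was nearest to Ccdc85a, with a root mean square difference of 0.14 over the 8 arrays, and farthest from Cd200 (0.79) and Stk26 (0.64). The pair most alike was Coch and Runx1t1 (0.23), and the pair least alike was Cd200 and Stk26 (1.30). Among genes outside the 9, the nearest to the mean profile were Armh4 (0.18), Jcad (0.26), Rp2 (0.28), Hpgd (0.29) and Wwtr1 (0.30). Wwtr1 encodes the coactivator Taz of the Hippo pathway, and Hpgd an enzyme that breaks down prostaglandins. Armh4 had a mean of 9.70 in double-KO and 9.06 in Jmjd1a-KO, against 7.97 in Jmjd1b-KO and 7.54 in WT, the order of Cd200 and Slc40a1. Wwtr1 had 10.09 in double-KO and 9.88 in Jmjd1a-KO, against 8.47 in Jmjd1b-KO and 8.29 in WT, an order and spacing like those of Coch. These genes were picked for likeness, so their agreement is no result.

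Relatives and pathway genes of the 9 gene products did not move as one group. Of 84 listed genes 72 were on the array and 32 were measured. Between double-KO and Jmjd1b-KO 13 were higher and 7 lower, with a median of 0.20, against 29.6 and 24.2% of all genes tested and a median of 0.02. Among 7 measured genes of iron handling around ferroportin, 1 was higher and 3 were lower: the metal importer Slc39a8 rose by 1.41 ± 0.09 (adjusted p = 0.003), while Fth1, the heavy chain of the iron store ferritin, differed by -1.06 ± 0.05 (adjusted p = 0.002), and the transferrin receptors Tfrc and Tfr2 by -0.96 ± 0.20 and -0.91 ± 0.11 (adjusted p = 0.022 and 0.007). The iron sensors Aco1 and Ireb2 did not pass, with 0.00 and 0.30. Against WT, the double-KO differences were -0.53 for Tfrc (adjusted p = 0.063) and -0.25 for Tfr2 (adjusted p = 0.31), neither of which passed. Tfr2 lay below the lower quartile in double-KO at 6.14, and Slc39a8 in Jmjd1b-KO at 6.22.

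Of 6 measured formins related to Diaph2, 5 were higher, Fmn2 most (1.57 ± 0.10, adjusted p = 0.003), while Diaph3 had 0.07 and did not pass. Fmnl2, among the 5, was also lower in Jmjd1b-KO than in WT, by -0.48 (adjusted p = 0.035). Its double-KO level did not pass against WT (0.29, adjusted p = 0.091). Both measured peptidases related to Mme were lower, Ece2 by -1.29 ± 0.08 and Ece1 by -0.46 ± 0.09 (adjusted p = 0.003 and 0.018), opposite to Mme itself. All 3 measured genes of the list around Runx1t1 were higher: Tcf12, an E protein that ETO factors bind, rose by 0.98 ± 0.23, Prdm14, a pluripotency regulator that works with an ETO factor, by 0.81 ± 0.11, and Cbfb, the partner of the Runx proteins, by 0.47 ± 0.11 (adjusted p = 0.029, 0.009 and 0.030). Tcf12 and Cbfb were also lower in Jmjd1b-KO than in WT, by -0.92 and -0.89 (adjusted p = 0.031 and 0.0084), and their double-KO means were 9.29 and 10.48, against 9.23 and 10.90 in WT, so neither lay above WT in the way Runx1t1 did. Prdm14 was above WT in double-KO (0.71, adjusted p = 0.0091). In Jmjd1a-KO it had -0.09 against WT and did not pass (adjusted p = 0.66). Of 6 measured genes around Stk26, 3 were higher, and its adaptor Pdcd10 had 0.17 and did not pass.

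Of 7 measured genes listed around Nlrp4f, which are NLR relatives and other genes of the oocyte, 1 was higher and 2 were lower. Khdc3 and Ooep, members of the maternal complex of the oocyte that are also transcribed in embryonic stem cells, were lower, with differences of -3.56 ± 0.28 and -3.28 ± 0.63 in double-KO against Jmjd1b-KO (adjusted p = 0.004 and 0.019). Nlrp14 rose by 0.74 ± 0.05 (adjusted p = 0.003). The close copies Nlrp4a and Nlrp4c had -0.20 and 0.22 and did not pass. None of the listed receptors of Cd200 and none of the relatives of Ccdc85a was measured, and of those of Coch 1, Dcbld2, was measured and did not pass (0.24).

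The nearest genes on the chromosome, looked at after the values were known, were compared in the same way. For each member the 5 nearest measured genes on each side were taken. Between 3 and 6 of the 10 were higher in double-KO than in Jmjd1b-KO, against 29.6% of all genes tested. Between 0 and 3 were lower, against 24.2%. The share called higher on a member's own chromosome ran from 23.1% for Ccdc85a to 45.9% for Diaph2 and Stk26. Both genes next to Coch, Scfd1 (1.64) and Strn3 (0.78), were higher, as was Vrk2 next to Ccdc85a (0.93). The stretch around Slc40a1 held Col3a1 (3.05) and Gulp1 (1.96), and 6 of its 10 genes were higher with 0 lower. Their median was 0.51 in this comparison and 0.02 in Jmjd1a-KO minus WT. Between Jmjd1b-KO and WT, Col3a1 differed by -2.88, Col5a2 by -2.61 and Gulp1 by -0.65, where Slc40a1 had 0.64. Of these neighbours only Hibch (0.10) lay above WT in Jmjd1b-KO. The differences of the neighbours from WT are given here with no test. Cd200, Mme, Diaph2, Ccdc85a and Runx1t1 lay above all 10 of their nearest genes. Diaph2 and Stk26 are X-linked. The 229 X-linked genes tested had a median of 0.22 in double-KO against Jmjd1b-KO, with 45.9% called higher, against 0.01 and 27.9% for 5592 autosomal genes. This difference was not tested, nor was its part in the values of Diaph2 and Stk26.

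**Figure D4:**
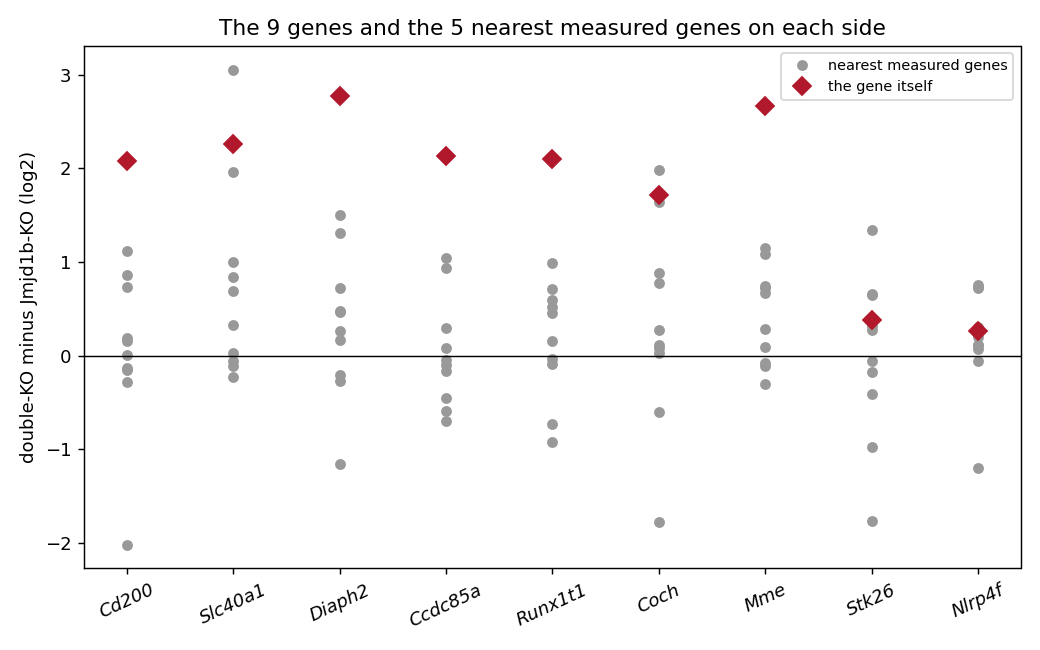
Log2 difference between double-KO and Jmjd1b-KO (y axis) for each of the 9 genes (diamonds) and for the 5 nearest measured genes on each side of it (circles). For Cd200, Diaph2, Ccdc85a, Runx1t1 and Mme the gene lies above all 10 neighbours, while neighbours of Slc40a1, Coch, Stk26 and Nlrp4f reach or pass it.

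Markers of other cell types were followed beside the 9 genes, as the log2 of their summed unlogged levels. The 5 of 9 trophoblast markers that were measured, Eomes, Krt7, Krt8, Krt18 and Tfap2c, had 12.77 and 12.76 in double-KO, 11.30 and 11.26 in Jmjd1a-KO, 11.07 and 11.09 in Jmjd1b-KO and 9.88 and 10.08 in WT. Tfap2c was the largest single part of this sum in each group. It ranked first in the contrast that chose the genes and had means of 12.15 in double-KO, 10.74 in Jmjd1a-KO, 9.66 for Jmjd1b-KO and 8.26 in WT. Eomes had the same order of groups, and Krt7, Krt8 and Krt18 did not. Krt8 and Krt18 were highest in double-KO (10.18 and 9.69), but Krt8 had 7.81 in Jmjd1a-KO and 8.96 in Jmjd1b-KO. Krt18 was lowest in Jmjd1a-KO (7.75) and Krt7 highest in Jmjd1b-KO (7.19). The defining markers Cdx2, Elf5, Gata3 and Hand1 were flat. The 8 of 12 measured fibroblast markers lay between 12.01 and 12.33 in double-KO, 12.06 and 12.31 in Jmjd1a-KO, 11.56 and 11.73 in Jmjd1b-KO and 12.72 and 12.80 in WT. This sum is carried by Vim and Col1a2, and Col3a1 (8.37 in double-KO, 8.20 in WT) and Thy1 (7.66 in Jmjd1b-KO, 7.10 in WT) were not highest in WT. The 3 of 8 measured endoderm markers, Gata6, Sox17 and Dab2, had 8.996 and 8.59 in double-KO, 8.50 and 8.44 in Jmjd1a-KO, 7.83 and 7.88 in Jmjd1b-KO and 8.15 and 8.27 in WT. Sox17 lay below the lower quartile in Jmjd1a-KO (6.18), Jmjd1b-KO (5.81) and WT (5.92). Dab2 differed by 0.06 between double-KO and Jmjd1a-KO. Neural markers, 6 of 6, spanned 10.16 to 10.43 in double-KO, 10.81 to 12.06 in Jmjd1a-KO, 10.35 to 10.41 for Jmjd1b-KO and 12.06 to 12.16 in WT. Of these only Pax6 had higher means in double-KO (7.27) and Jmjd1a-KO (7.48) than in WT (7.17). Of 7 blood markers Kit alone was measured, with means of 9.28 in double-KO and 9.21 in Jmjd1a-KO, against 8.83 in Jmjd1b-KO and 8.28 in WT. Their part in the result for the 9 genes was not tested, and a change in the share of cells cannot be told apart from a change in RNA per cell in such bulk samples.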

How the data were processed

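Deposited values were log2 levels, 1 per probe set and array, as read from the values; R 2.7.2 appears in the submitters' processing notes. The background correction, array normalization and summary of probes are steps not given in the sources used here. Array medians lay between 6.80 and 6.81. Probe sets were named through the platform's gene table: 34958 had 1 symbol, 932 several and 9211 none, and the last 2 kinds were not tested. Each gene was read by its brightest probe set spanning at least 0.01 over the 8 arrays (7181 genes). Flat rows were left out because earlier results of these data had shown most rows to be flat. Group means were fitted with limma 3.58.1 in R 4.3.3 (lmFit, eBayes) and p-values adjusted over all 7181 genes by Benjamini-Hochberg with a threshold of 0.05. The scripts were tested on simulated data. Double-KO against Jmjd1b-KO used those 4 arrays, the other comparisons all 8. The number of arrays limits the precision.

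The members, gene lists, tests and the rule for named genes (the 9 members, the deleted genes, at most 10 listed relatives past the threshold, the 5 nearest profiles) were chosen with earlier results of these data known. Further relatives and neighbouring genes are named that were picked after their values were seen. Alternatives were flat genes included, every probe set, the mean of probe sets, quantile normalization, centring, a filter on dim genes, a span of 0.1, eBayes with trend, array weights, a replicate block, stricter thresholds, other samples in the fit and omission of each array. Sequences are from RefSeq, build GRCm38.p6. Plots used matplotlib 3.10.9 (Python 3.11.15).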

Additional observations from a re-analysis of the deposited data

Results flagged for a closer look

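The difference that went with Jmjd1b loss was not the same in cells without and with Jmjd1a in 7 of the 9 genes, by the interaction in the limma fit at an adjusted p under 0.05, where 14.1% of all genes tested were positive and 12.2% negative. On the log2 scale it was larger without Jmjd1a for Diaph2 (by 1.18), Slc40a1 (0.94), Runx1t1 (0.87), Mme (0.83) and Ccdc85a (0.59). These 5 positive calls were 0 in the fit with flat genes and 1 without either WT array. It was smaller for Nlrp4f (-1.42) and Stk26 (-1.02). The interaction contains the contrast that chose the genes, which pulls it down, so these negative values are not independent of the choice. Groups of 2 arrays were too small to look for an array that stands apart from its own group.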

How the results depend on the processing

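No member of the 9 changed direction in double-KO against Jmjd1b-KO, in double-KO against Jmjd1a-KO or in the interaction under any alternative run. In Jmjd1b-KO against WT, Diaph2, which passed nowhere, turned to 0.085 without WT replicate 1 and to 0.12 without Jmjd1b-KO replicate 2, and ranged from -0.21 to 0.12 over the omission of each array. With the flat genes in the fit, the count of higher members was 3 in place of 8 in double-KO against Jmjd1b-KO and 2 in place of 4 in Jmjd1b-KO against WT, with 0 in place of 1 lower there and in double-KO against Jmjd1a-KO, and 0 in place of 5 for a positive interaction. The filter on dim genes left 3 members in the test (Diaph2, Nlrp4f and Stk26), so the counts were 2, 1 and 2 higher for double-KO against Jmjd1b-KO, double-KO against Jmjd1a-KO and Jmjd1b-KO against WT, 0 lower in the last and 1 positive interaction, by construction. A log2 difference of at least 1 left 3 higher and 0 lower in double-KO against Jmjd1a-KO, 2 higher and 0 lower in Jmjd1b-KO against WT and 1 positive interaction. An adjusted p under 0.01 left 2 higher and 0 lower in Jmjd1b-KO against WT, 0 lower in double-KO against Jmjd1a-KO and 0 positive interactions. In double-KO against Jmjd1a-KO, only the groups compared gave 3 higher and 0 lower, and array weights 0 lower; the cause was not tested. Omission of each array gave 7 to 8 higher and 0 lower in double-KO against Jmjd1b-KO, 5 to 6 higher and 0 to 1 lower in double-KO against Jmjd1a-KO, 2 to 5 higher and 0 to 1 lower in Jmjd1b-KO against WT, and 1 to 5 positive and 2 negative interactions; a lone array was then assumed to vary like the other groups. The deviations of same-numbered arrays correlated between -0.12 and 0.22. With 1 difference between replicates per group, this cannot decide whether the replicate numbers pair the arrays. With the replicate block the counts were 7 higher in double-KO against Jmjd1b-KO, 5 higher and 1 lower in double-KO against Jmjd1a-KO, 4 higher and 1 lower in Jmjd1b-KO against WT, and 4 positive and 2 negative interactions, and with the double-KO numbers crossed, added after seeing the data, they were 8, 6, 1, 4, 1, 5 and 2 in the same order. Over all genes, 2128 were higher and 1736 lower in double-KO against Jmjd1b-KO, against 550 and 797 with the flat genes. Double-KO against Jmjd1a-KO had 1297 higher and 858 lower, 275 and 126 with only the groups compared, 679 and 400 with array weights and 1043 and 1151 with centring. Centring also turned the majority in double-KO against Jmjd1b-KO (1780 and 2095), in Jmjd1b-KO against WT (831 and 844) and in the interaction (933 and 1000). Jmjd1b-KO against WT had 976 and 732, and 1893 and 1442 with only the groups compared. Leaving out a WT or Jmjd1b-KO array lowered the counts of genes called over all genes in the comparisons that use its group. Leaving out a double-KO array raised them in double-KO against Jmjd1b-KO. The shares of genes called thus depend on the arrays in the fit, and the cause was not tested. Array weights were run for the fits of 8 arrays only. Signal over background was not examined, which limits values near the lower quartile of an array.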
